A study of Mus musculus with 6 samples.

Results

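Gene expression was compared between 2 lines of mouse embryonic stem cells with the same genotype, null for the linker histone genes H1c (current symbol H1f2), H1d (H1f3) and H1e (H1f4). The arrays were chosen by their titles: 2 arrays of the line titled ES_H1_3KO1 (line 1 here) and 2 of the line titled ES_H1_3KO2 (line 2), so 4 of the 6 arrays of the study. The remaining 2 arrays hold wild-type embryonic stem cells, and their values are given as a reference. They also entered the filter on low values and the estimate of the spread behind the p-values. RNA of all 6 samples came from cells in exponential growth and was hybridised to Affymetrix arrays of 12488 probe sets. The labels name no strain, passage, feeder layer or treatment, and do not say whether each line is 1 clone. Nor do they tell whether separate cultures stand behind the arrays of one line. The spread that the p-values measure is therefore that of these arrays, and it may be technical.

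Linker histones sit on the nucleosome at the entry and exit of its DNA and take part in the compaction of chromatin. Embryonic stem cells are pluripotent cells derived from the early embryo. Lines of one genotype that are kept in culture separately can come to differ in gene expression, in the marks on imprinted genes and in their chromosomes, and setting them against each other measures that variation with the mutation held the same.

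The null arrays had median signals between 34.2 and 37.1 intensity units, and the brightest of 19 bacterial and yeast control probe sets, taken here as background, lay between 9.1 and 16.8. For Gapdh, the 3' over the 5' probe set, a log2 ratio that follows RNA integrity, was -0.25 and -0.26 in line 1 and -0.16 on both arrays of line 2. For Actb it was 0.40 and 0.31 in line 1 and 0.21 and 0.25 in line 2. Neither ratio overlapped between the lines, and the part of RNA integrity in the differences described here was not tested. All 11 markers of undifferentiated embryonic stem cells were above background on every null array, with summed signals of 9414 and 8883 in line 1 and 8634 and 8519 in line 2. Markers of feeder fibroblasts (6 of 11 on the array above background on both arrays of each line) summed to 599 and 588 in line 1 and 569 and 585 in line 2, with Postn not above background on any null array. Markers of extraembryonic endoderm (6 of 10 above background in line 1 and 5 in line 2) summed to 206 to 300 in line 1 and 253 to 254 in line 2, with Foxa2, Apoa1 and Hnf4a not above background. For neuroectoderm (3 of 6 in line 1 and 2 in line 2) the sums were 1040 and 1148 in line 1 and 914 and 932 in line 2, with Neurog1 and Map2 not above background. Most of these sums came from Tubb3, at 775 and 811 in line 1 and 639 and 632 in line 2. Its probe set has the f ending, which marks a sequence family. Nes, at 222 and 299 in line 1 and 249 and 267 in line 2, overlapped between the lines. Mesoderm sums (3 of 5 in line 1 and 2 in line 2) were 140 to 162 in line 1 and 140 to 147 in line 2, with Mesp1 and Gsc not above background. Those of trophoblast (2 of 5 in each line) were 69 to 85.3 in line 1 and 64.2 to 77.7 in line 2, with Cdx2 and Elf5 not above background.

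Of the deleted genes, H1f2 measured 11.1 and 11.5 in line 1, 13 and 14.4 in line 2, and 70 and 68.2 in wild-type cells. All 4 null values lay close to background, and the lines differed by -0.24 ± 0.12 on the log2 scale (SE, line 1 minus line 2, limma adjusted p = 0.645). The probe sets of H1f3 and H1f4 were at background on every array, wild type included, and check nothing about these genes. H1f5, also a linker histone made during DNA replication, measured 41.8 and 49.9 in line 1 and 38.3 and 34.8 in line 2, with wild-type values at background (5.7 and 6.9). Its values were far above background in both lines, and the difference between them was 0.31 ± 0.15 (SE, limma adjusted p = 0.643). H1f10, the replication-independent H1x, measured 299 and 726 in line 1 and 384 and 241 in line 2, so a single array of line 1 stood above the others and the lines overlapped (0.61 ± 0.45, SE, limma adjusted p = 0.734). H1f1 measured 30.8 and 34.2 in line 1 and 21.4 and 33.1 in line 2, which also overlapped (limma adjusted p = 0.798). The germ cell linker histones, H1f6 and H1f8, did not reach the filter on low values.

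Among genes that set both null lines apart from wild type, Meg3, the H19 probe set and Rhox5 had nearly the same level in each line. The genes in this group were chosen because of that earlier result, and only their difference between the lines is considered here. Meg3, a maternally expressed noncoding RNA, measured 196 and 153 in line 1, 183 and 194 in line 2, and 15.4 and 14.2 in wild-type cells. The lines overlapped, with a difference of -0.12 in that probe set and 0.11 in a second one (limma adjusted p = 0.862 for the first). Probe set 93028_at, listed with Mir675 and H19, measured 813 and 959 in line 1, 811 and 829 in line 2, and 107 and 123 in wild-type cells. Its lines overlapped too (0.11, limma adjusted p = 0.869). Rhox5, an X-linked homeobox gene, measured 1209 and 1214 in line 1 and 1285 and 1310 in line 2, against 213 and 295 in wild-type cells (-0.10 between the lines, limma adjusted p = 0.903). Igf2, a paternally expressed growth factor, measured 597 and 722 in line 1 and 465 and 485 in line 2, with 1714 and 1763 in wild-type cells. Both arrays of line 1 lay above both of line 2, by 0.46 ± 0.14 (SE), and the difference did not pass (limma adjusted p = 0.627). Eif2s3y, a Y-linked translation initiation factor subunit, measured 76 and 71.5 in line 1 and 50.5 and 49 in line 2, with 11.5 and 9 in wild-type cells (0.55 ± 0.15, SE, limma adjusted p = 0.618). Its probe set has the f ending of a sequence family. The lines did not overlap for this gene either. Xist and the other Y-linked genes on the array did not reach the filter on low values. Probe set 101883_s_at, which the annotation assigns to the X-linked genes Xlr3a, Xlr3b and Xlr3c together, separated the lines further, at 16.3 and 19.7 in line 1, 51.3 and 56.2 in line 2, and 2.1 and 4.5 in wild-type cells. Both null lines were above wild type, line 2 the more so, and the difference of -1.48 ± 0.24 (SE) between the lines did not pass (limma adjusted p = 0.387).

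Across the transcriptome the lines were about as far apart as the arrays of 1 line. Differences were taken as log2(value + 2) over the 7453 probe sets that passed the filter on low values. The SD of the log2 difference was 0.371 between the arrays of line 1 and 0.347 between those of line 2. Between an array of line 1 and an array of line 2 it was 0.31, 0.373, 0.396 and 0.426, so 1 of the 4 pairs of different lines was closer than either pair of the same line. A difference of at least 2-fold separated the arrays of line 1 for 151 probe sets and those of line 2 for 156, against 97 to 238 for arrays of different lines. The pair numbered exp1 in the titles had the 97, and the pair numbered exp2 the 238.

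The difference measured with the exp1 arrays and that measured with the exp2 arrays share no array. Over the 7453 probe sets, which are not independent and share those 4 arrays, these differences correlated with r = 0.143, and 54.8% of the probe sets had the same sign in both. Of the 97 and 238 probe sets past 2-fold, 20 were past it in both pairs in the same direction and 10 in opposite directions.

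**Figure D1:**
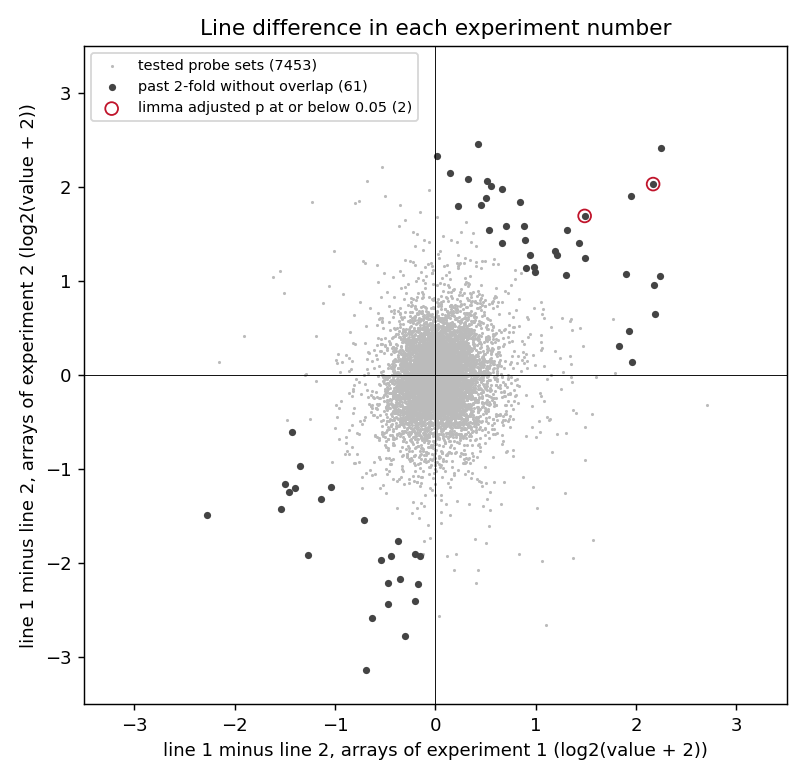
Difference between the null lines, line 1 minus line 2 on the log2(value + 2) scale, for the arrays numbered exp1 (horizontal axis) and exp2 (vertical axis). Each point is 1 of 7453 probe sets; dark points are the 61 past 2-fold without overlap of the lines and red rings the 2 that passed limma's adjusted p of 0.05. Most points form a round cloud around 0, and several of the dark points are far from 0 in 1 pair only.

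Differences of single genes were mostly of the size of their error. The median absolute difference between the lines was 0.15, its 90th percentile 0.42 and its 99th percentile 0.96. The median standard error was 0.162, and the median 95% interval, without adjustment, reached 0.395 to either side. A difference below that size was not detectable for a typical probe set. The adjusted threshold was stricter, so 0.395 is not the size at which a difference passed. Of the 7453 probe sets, 2 (0.0268%) passed limma's adjusted p of 0.05, both higher in line 1. At an unadjusted p under 0.05 there were 563 (7.55%). The arrays of the lines did not overlap for 2913 probe sets (39.1%). The smallest two-sided p of an exact permutation test of 2 arrays against 2 is 0.33, so the adjusted p-values depend on the model. Both calls were lost without any 1 of the 6 arrays and when the 4 null arrays were fitted alone, which left 0 calls by limma (between 339 and 933 probe sets with an unadjusted p under 0.05 without 1 array, and 465 for the null arrays alone).

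Prp2, which encodes a proline-rich protein of the family found in saliva, was the only named gene that passed. Its probe set 93650_i_at measured 127 and 106 in line 1, 26.7 and 24.5 in line 2, and 28.2 and 28.3 in wild-type cells. Line 1 stood apart, and line 2 lay just below the wild-type level. The difference was 2.10 ± 0.14 on the log2 scale (SE, limma adjusted p = 0.0337). A second probe set of Prp2, 93651_r_at, did not show it, with 33.3 and 89 in line 1, 33 and 60.9 in line 2, and 29.2 and 123 in wild-type cells (0.27, limma adjusted p = 0.941). There the exp2 array was the brighter in every line and the lines overlapped. In the naming of these arrays, the ending i marks a probe set with fewer probes than intended and the ending r one for which design rules were dropped. Probe set 162020_at, with no gene listed, measured 32.5 and 34.2 in line 1, 10.3 and 9.2 in line 2, and 43.6 and 44.1 in wild-type cells. Here line 2 stood apart, at background on both arrays, and line 1 was nearer to wild type. It was at least 2.3-fold higher in line 1, comparing its signal there with the background of the line 2 arrays, and the fitted difference was 1.59 ± 0.12 (SE, limma adjusted p = 0.0418).

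The promoter of Prp2 is shown because it is the named gene that passed, beside that of Tcta, the gene of smallest p on the side of line 2, as RefSeq gives them for GRCm38.p6 from 250 bases before the start to 50 after it. Both are written 5' to 3' on the strand of the gene, Prp2 on the plus strand of chr6:132595661-132595960 and Tcta on the minus strand of chr9:108306110-108306409. Capitals mark the motif CG, the dinucleotide that DNA methylation acts on, which reads the same on both strands.
Prp2: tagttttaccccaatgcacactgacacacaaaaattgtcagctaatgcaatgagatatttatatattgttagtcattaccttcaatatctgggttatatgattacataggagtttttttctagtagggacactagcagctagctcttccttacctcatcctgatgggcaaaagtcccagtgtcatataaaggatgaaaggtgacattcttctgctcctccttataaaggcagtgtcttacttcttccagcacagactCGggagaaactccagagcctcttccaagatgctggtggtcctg
Tcta: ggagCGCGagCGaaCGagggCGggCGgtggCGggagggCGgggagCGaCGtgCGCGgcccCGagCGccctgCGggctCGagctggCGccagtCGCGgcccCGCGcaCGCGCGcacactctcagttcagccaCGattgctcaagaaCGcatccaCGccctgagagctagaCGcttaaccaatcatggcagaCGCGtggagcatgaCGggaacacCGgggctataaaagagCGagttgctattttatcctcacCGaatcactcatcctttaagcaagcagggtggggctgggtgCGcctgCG
The Prp2 window holds 1 CG, and 94.2% of 27025 such promoters hold at least that many. The window of Tcta holds 36, a number that 6.02% of the promoters reach, and the median promoter has 7. The promoter of Tlx3, described below, holds 18. These counts describe the sequences, and no methylation was measured.

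Probe sets past 2-fold were counted as a description, with no test: a difference of at least 1 on the log2 scale, no overlap of the lines' arrays, and the brighter line above background on both arrays. There were 61, of which 37 (0.496% of those tested) had the brighter values in line 1 and 24 (0.322%) in line 2. They were dim. Their median signal over the null arrays was 38, against 98.2 for all tested probe sets, the highest was 185, and none of the 2054 tested probe sets with a mean of 200 or more was among them. Probe sets with the ending r made up 10 of the 61 (16.4%) and 4.88% of those tested, and those with the ending i 4 of the 61 (6.56%) and 1.49%. The plain ending made up 38 (62.3%) and 81%. The number and its split changed when a null array was left out. Leaving out an array also loosens the rule, since 1 array then stands for its line, so part of the rise is built in. Without the exp1 array of line 1 there were 148, with 63 brighter in line 1 and 85 in line 2, and without the exp1 array of line 2 there were 145, with 94 and 51. Just outside the 2-fold limit were Pemt (-0.98), Klf1 (-0.98) and Krtdap (0.97), and just inside it Prss32 (1.01), Hcrt (-1.02) and Gcnt2 (1.02).

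**Figure D2:**
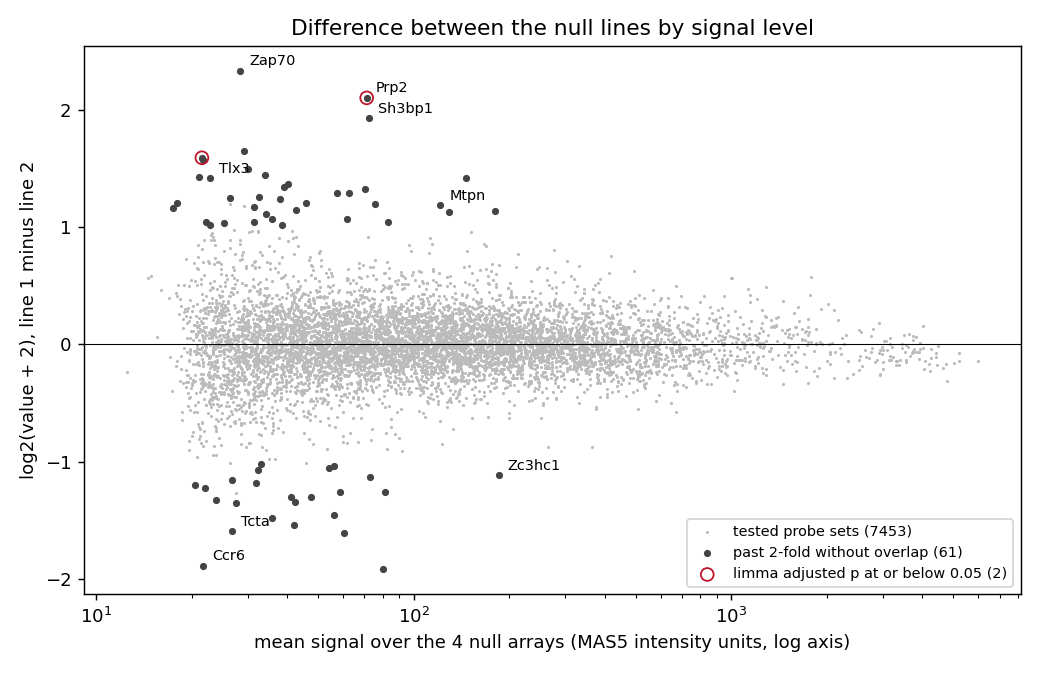
Difference between the null lines, line 1 minus line 2 on the log2(value + 2) scale, against the mean signal over the 4 null arrays (MAS5 intensity units, log axis). Grey points are the 7453 tested probe sets, dark points the 61 past 2-fold without overlap, and red rings the 2 that passed limma's adjusted p of 0.05. The dark points lie at signals of 185 or less, and the cloud narrows as the signal rises.

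The wild-type values were used as a reference for which line was the farther away. Of the 37 probe sets brighter in line 1, line 2 was the farther from wild type for 26 and line 1 for 11. For 15 of them the arrays of line 2 alone were clear of both wild-type arrays, for 5 those of line 1 alone, for 13 both and for 4 neither. Of the 24 brighter in line 2, line 1 was the farther from wild type for 14 and line 2 for 10. For 10 of them the arrays of line 2 alone were clear of both wild-type arrays, for 7 those of line 1 alone, for 6 both and for 1 neither, so on this side the distance and the lack of overlap point to different lines. The lines lay on opposite sides of wild type for 8 of the 37 and 4 of the 24. In 5 of the 37 and 1 of the 24 the dimmer line was at background on both arrays. All these probe sets were picked by their difference between the lines. The filter on the mean of all 6 arrays also used the wild-type values. A probe set dim in 1 null line therefore passed more easily where wild type was bright. The shares of all tested probe sets with such positions against wild type were not counted, so these numbers have no background beside them.

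Among genes with brighter values in line 1, those after Prp2 by p were Sh3bp1, Tlx3 and Zap70, and none of them passed. Sh3bp1, which encodes a GTPase-activating protein for Rac, measured 122 and 110.2 in line 1, 30.1 and 27.9 in line 2, and 110.5 and 77.8 in wild-type cells. Line 2 stood apart from both other lines, and the difference between the null lines was 1.93 ± 0.19 (SE, limma adjusted p = 0.109). Tlx3, a homeobox factor of developing neurons, measured 33.6 and 34.8 in line 1, 11.2 and 11.9 in line 2, and 24.1 and 30.2 in wild-type cells. Line 2 was at background on both arrays, which makes the signal of line 1 at least 2.36-fold that bound (fitted difference 1.42 ± 0.15, SE, limma adjusted p = 0.112). Zap70, the tyrosine kinase of the T cell receptor, measured 49.3 and 48.1 in line 1, 8.8 and 7.4 in line 2, and 20.7 and 38.3 in wild-type cells with probe set 93662_s_at. Line 2 was at background here as well, and the bound was at least 3.36-fold (fitted difference 2.33 ± 0.27, SE, limma adjusted p = 0.168). A second probe set of Zap70 measured 25.9 and 22.2 in line 1 and 26.3 and 21.2 in line 2, with the lines overlapping, and the remaining one was at background in both lines.

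The other 8 named genes on this side had adjusted p between 0.363 and 0.554 by limma. Prkar1b, a regulatory subunit of protein kinase A, measured 81.3 and 86.6 in line 1, 40.2 and 37.9 in line 2, and 74.3 and 96.7 in wild-type cells (1.07 ± 0.16, SE). Its second probe set, 94944_at, measured 20.1 and 30.4 in line 1 and 17.4 and 21.7 in line 2 and overlapped (0.32, limma adjusted p = 0.728). Mtpn, an ankyrin repeat protein that binds actin capping protein, measured 201 and 139 in line 1, 80.2 and 65 in line 2, and 140 and 135 in wild-type cells (1.19 ± 0.21, SE). For Mtpn and the first probe set of Prkar1b, line 2 lay below both wild-type arrays while line 1 overlapped them. Gcnt2, which branches poly-lactosamine chains, measured 32.5 and 30 in line 1, 16.5 and 12.5 in line 2, and 21.3 and 20.4 in wild-type cells, so the lines lay to either side of wild type (1.02 ± 0.16, SE). Myoz1, a protein of the muscle Z-disc, measured 46.2 and 67.4 in line 1, 24.9 and 17.4 in line 2, and 39.8 and 45.5 in wild-type cells (1.34 ± 0.24, SE). Its lines also lay to either side. Smg5, a factor of nonsense-mediated mRNA decay, measured 121 and 104 in line 1 and 59.7 and 47.8 in line 2 with a probe set of the f ending, which marks a sequence family. Its other tested probe set measured 47.3 and 54.2 in line 1 and 52.2 and 50.3 in line 2 and overlapped (-0.02, limma adjusted p = 0.985). Col9a1, a cartilage collagen (1.26), Tulp1, a photoreceptor protein (1.03), and Zfp94, a zinc finger gene (1.14), completed the 12. Zfp94 was the one of these 3 for which line 1 was the farther from wild type, at 230 and 263, against 141 and 86.5 in line 2 and 96.6 and 95.8 in wild-type cells. Those values come from a probe set of the r ending, and a second one of Zfp94 was at background on every array.

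Of the genes with brighter values in line 2 none passed. Tcta, which encodes a small membrane protein, had the smallest p among them and measured 12.7 and 11.6 in line 1, 33.5 and 49.2 in line 2, and 38.4 and 35.4 in wild-type cells. Line 1 stood apart from both other lines, by -1.59 ± 0.20 from line 2 (SE, limma adjusted p = 0.198). A second probe set was below the filter, at 14.6 and 14.5 in line 1 and 10.9 and 13.8 in line 2. Ccr6, a chemokine receptor of lymphocytes, measured 7 and 9.1 in line 1, 41.7 and 29.2 in line 2, and 15.4 and 28.9 in wild-type cells. Line 1 was at background on both arrays, which puts line 2 at least 3.34-fold above that bound (fitted difference -1.89 ± 0.31, SE, limma adjusted p = 0.428). Zc3hc1, a nuclear zinc finger protein, was the brightest of these genes, with 134 and 98.9 in line 1, 279 and 228 in line 2, and 180.2 and 159 in wild-type cells. The lines lay to either side of wild type, with a difference of -1.12 ± 0.20 (SE, limma adjusted p = 0.454). Dll1, a ligand of Notch receptors, measured 12 and 20.1 in line 1, 33.7 and 41.1 in line 2, and 22.9 and 29.8 in wild-type cells. Bhmt, a methyltransferase that turns homocysteine into methionine, measured 13.5 and 11.3 in line 1, 32.1 and 31.2 in line 2, and 26.7 and 16.5 in wild-type cells. In both genes wild type lay between the lines, and the differences were -1.16 ± 0.25 and -1.23 ± 0.22 (SE, limma adjusted p = 0.554 and 0.454). Each of these genes also has a second probe set, which was at background on every array.

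The other 7 named genes on this side had limma adjusted p between 0.585 and 0.627. Acvr1b, a type I receptor for activin and Nodal, measured 11.8 and 17.7 in line 1 and 36 and 44.8 in line 2, while the wild-type arrays, at 30.7 and 10, disagreed with each other (-1.36 ± 0.46, SE). Sec23b, of the COPII vesicle coat, measured 8.6 and 17.5 in line 1 and 27.9 and 41.4 in line 2 with a probe set of the f ending (-1.33). A brighter one measured 186 and 215 in line 1 and 196 and 265 in line 2, where the lines overlapped (-0.19, limma adjusted p = 0.823). Prxl2a, a peroxiredoxin-like protein, differed by -1.34 with 1 probe set and by -0.13 with the other tested one. For Chrne, a subunit of the muscle acetylcholine receptor, the probe sets pointed opposite ways, at -1.13 and 0.47. A4galt, a glycolipid galactosyltransferase (-1.26), Acp5, an acid phosphatase of osteoclasts (-1.07), and Aanat, an enzyme of melatonin synthesis (-1.30), were the rest. A second probe set of Aanat was at background on every array. Of the 24 named genes, 14 were under the 2-fold limit when some 1 array was left out, and the value of A4galt, Acp5, Chrne and Prxl2a moved by over 1.5 times. It was -0.76 for A4galt, -0.58 for Acp5 and -0.52 for Chrne without the exp2 array of line 1, and -0.84 for Prxl2a without the exp2 array of line 2.

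**Figure D3:**
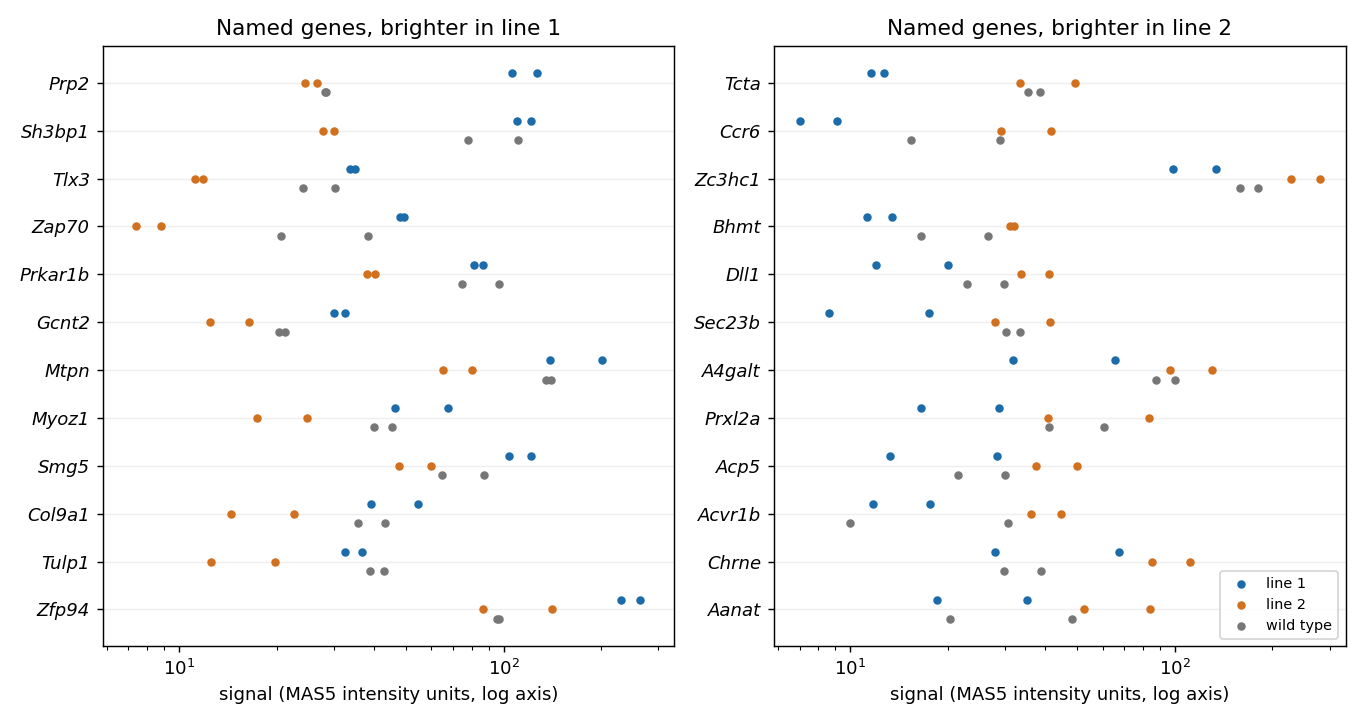
Signal of each named gene on every array (MAS5 intensity units, log axis), with the 12 genes brighter in line 1 on the left and the 12 brighter in line 2 on the right. Each point is 1 array (blue line 1, orange line 2, grey wild type), with 2 arrays per line. The null lines do not overlap for any gene shown, which the choice of genes requires, and the grey points are near line 1 for some genes, near line 2 for others and between them for the rest.

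Gene lists were described by their counts and medians beside those of all genes, with the brightest probe set standing for each gene. Over 5654 genes the median difference was 0.00, and 220 genes (3.89%) had an unadjusted limma p under 0.05 with the higher value in line 1 and 194 (3.43%) with the higher value in line 2. None of the 551 list genes tested passed the adjusted p of 0.05 (smallest limma adjusted p = 0.454), while 27 (4.9%) and 18 (3.27%) had an unadjusted p under 0.05 in those directions. Both shares are near the background. Apart from Pou5f1, Nanog and Sox2, genes named from the lists below are those of small unadjusted p, and their limma adjusted p lay between 0.454 and 0.627. The median had opposite signs in the exp1 and exp2 pairs for 10 of the 33 lists with at least 5 genes tested.

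Pluripotency genes lay close together. Of 27 tested, 15 had the higher value in line 1 and 12 in line 2, with a median of 0.04, and 2 and 1 had an unadjusted p under 0.05. Pou5f1, Nanog and Sox2, the core factors, differed by 0.05, 0.18 and 0.22 (limma adjusted p = 0.942, 0.739 and 0.747; chosen after their values were seen). Tfcp2l1, a factor of naive pluripotency, had the smallest p of all list genes and measured 295 and 300.4 in line 1, 189 and 191 in line 2, and 265 and 258 in wild-type cells. The arrays of each line were within a few units of each other, the lines lay to either side of wild type with line 2 the farther, and the difference was 0.64 ± 0.12 (SE, limma adjusted p = 0.454). Dppa2 went the other way, with 353 and 339 in line 1 and 452 and 479 in line 2 (-0.43), and Alpl, the alkaline phosphatase used to stain such cells, differed by 0.39. Of 7 genes of primed pluripotency, the state of the later epiblast, 6 had the higher value in line 2, with a median of -0.46, the farthest from 0 of the lists with at least 5 genes tested. The median was -0.32 in the exp1 pair and -0.20 in the exp2 pair, and -0.15 without the exp1 array of line 1. They include Fgf5, with 29.5 and 22.8 in line 1 and 32.4 and 40.7 in line 2 (-0.46), and the de novo methyltransferase Dnmt3a, with 121 and 96.4 in line 1 and 165 and 140 in line 2 (-0.48). Neither overlapped between the lines, and neither passed.

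Genes of the basement membrane and of adhesion had the higher value in line 1 for 23 of 31, with a median of 0.11 (0.12 in the exp1 pair and 0.14 in the exp2 pair), and 5 had an unadjusted p under 0.05, all on that side. Lamc1, a laminin chain, measured 172 and 204 in line 1, 103 and 110.4 in line 2, and 198 and 151 in wild-type cells (0.80 ± 0.18, SE, limma adjusted p = 0.554). Line 2 lay below both other lines. The desmosomal Dsp measured 405 and 470.2 in line 1, 299 and 314 in line 2, and 570.5 and 503 in wild-type cells (0.51), so both null lines were below wild type. Hspg2, or perlecan, differed by 0.71 (0.30 without the exp2 array of line 1), the tight junction gene Cldn4 by 0.50 (0.23 without the exp2 array of line 2) and the integrin Itgb1 by 0.36. In the list of keratins and simple epithelium, 12 of 17 had the higher value in line 1 (median 0.13). Krt7 measured 118 and 124 in line 1 and 83.4 and 73.4 in line 2 (0.61), and Emp2 30.2 and 24.8 in line 1 and 42.5 and 47.2 in line 2 (-0.67). Krt7 also belongs to the trophoblast list, where 7 of 8 had the higher value in line 1 and the median was 0.31, or 0.093 without the exp2 array of line 1. The keratin median was 0.010 without the exp2 array of line 2.

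Markers of differentiation did not move one way. Of 20 extraembryonic endoderm markers 12 had the higher value in line 1, with a median of 0.12 that was 0.14 in the exp1 pair and -0.13 in the exp2 pair, and -0.10 without the exp1 array of line 1. For 14 mesoderm markers the median was 0.15, or -0.022 without the filter on low values, with Gata2 at 0.56 and Snai1 at 0.69, and for 10 neuroectoderm markers it was -0.07. Of 17 fibroblast markers 10 had the higher value in line 2 (median -0.03), among them the contractile genes Acta2, with 303 and 290.3 in line 1 and 421 and 367 in line 2 (-0.40), and Cnn1 (-0.57), and the matricellular Ccn2 (-0.45), while the collagen Col6a1 was at 0.36. None of these passed, and with RNA from whole cultures, fewer cells of a type and less RNA per cell cannot be told apart.

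Imprinted and germline genes showed no common direction. Of 16 maternally expressed genes 12 had the higher value in line 2 (median -0.07, or 0.032 without the exp2 array of line 1), and Igf2r, the receptor that clears Igf2, measured 174 and 225 in line 1 and 156 and 134 in line 2 (0.45). The 14 paternally expressed genes had a median of 0.10, with Igf2 at 0.46 and Ndn at -0.42. Of 11 germline and Rhox genes 8 had the higher value in line 2, with a median of -0.10, or -0.34 with a filter at the 60th percentile. Zp3, a glycoprotein of the egg coat, measured 58.2 and 58.5 in line 1, 79 and 82.4 in line 2, and 32.8 and 37.1 in wild-type cells (-0.45 ± 0.13, SE, limma adjusted p = 0.618). Tex19.1, a germ cell gene, measured 143 and 174 in line 1, 206 and 273 in line 2, and 97.2 and 119 in wild-type cells (-0.58 ± 0.20, SE, limma adjusted p = 0.627). In both genes the order was wild type, line 1, line 2, with no overlap.

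Lists of signalling were mixed as well. Of 10 FGF and ERK genes 2 had an unadjusted p under 0.05, both with the higher value in line 2: the feedback inhibitor Spry4 (-0.40) and the immediate early factor Egr1 (-0.40). The Jun family genes Junb and Jund were at 0.39 and 0.57. In the LIF and STAT3 list Jak2, the kinase of cytokine receptors, was at -0.57 (12 tested, median -0.04). Nodal and BMP genes had a median of -0.11 over 16, Wnt genes -0.12 over 12 (0.09 in the exp1 pair and -0.24 in the exp2 pair) with Cdx1 at 0.74, and retinoic acid genes 0.16 over 7 with Cyp26a1, which degrades retinoic acid, at 0.46. Hox genes had a median of -0.10 over 8, and of 4 metallothioneins Mt4 was at -0.58.

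Lists of growth and housekeeping had medians near 0. They were -0.07 for 33 S phase genes, -0.01 for 31 mitosis genes, -0.07 for 19 ribosomal protein genes and -0.01 for 40 genes of oxidative phosphorylation. Medians were 0.01 for 23 glycolysis and hypoxia genes, 0.00 for 15 heat shock genes and 0.00 for 26 genes of the unfolded protein response. Among 35 chromatin and DNA methylation factors the median was -0.03. Rnf2, the ubiquitin ligase of Polycomb, measured 266 and 192 in line 1, 126 and 158 in line 2, and 239 and 205 in wild-type cells (0.67 ± 0.21, SE, limma adjusted p = 0.627), and the acetyltransferase Kat2a was at 0.47. Cholesterol and fatty acid synthesis genes had a median of 0.12 over 18 (14 with the higher value in line 1, Mvd at 0.59), and glutathione and NRF2 targets one of -0.11 over 19 (15 with the higher value in line 2, Gclc at -0.34). For the remaining lists medians were 0.14 for 11 p53 genes, 0.10 for 14 G1 cyclins, kinases and inhibitors, 0.00 for 15 interferon and MHC class I genes, with Tapbp at 0.32, 0.04 for 20 immediate early genes and 0.16 for 5 core histones.

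**Figure D4:**
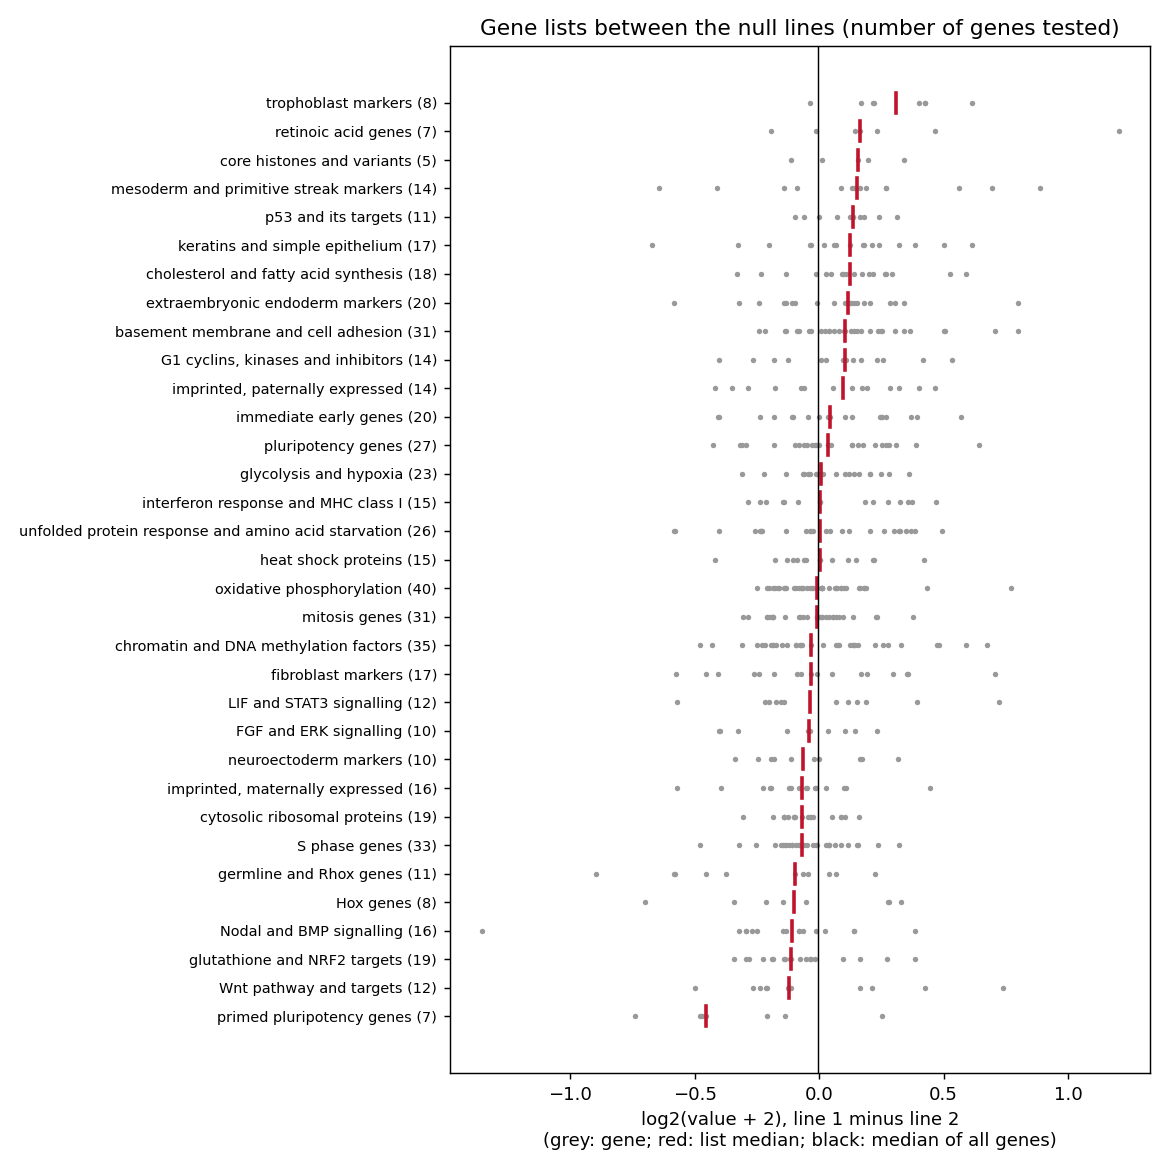
Difference between the null lines, line 1 minus line 2 on the log2(value + 2) scale, for the genes of each list with at least 5 genes tested (number in brackets). Grey points are genes, red bars list medians and the black line the median of all 5654 genes. Medians run from -0.46 for primed pluripotency to 0.31 for trophoblast markers, and in most lists the genes spread to both sides of 0.

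Chromosomes were compared because embryonic stem cell lines can gain or lose chromosomes in culture, which shifts the expression of many genes of a chromosome together. The median difference ran from -0.06 on chromosome 11 (520 genes) to 0.05 on chromosome 8 (299 genes). On chromosome 11 it was -0.07 in the exp1 pair and -0.06 in the exp2 pair, and 39.8% of the genes had the higher value in line 1. On chromosome 8 it was 0.08 and 0.02, and 59.5% of the genes had the higher value in line 1. On the other chromosomes this share ran from 40.8% (chromosome 14) to 56.8% (chromosome 18). The middle 50% of genes spanned -0.20 to 0.08 on chromosome 11, -0.08 to 0.23 on chromosome 8 and -0.14 to 0.15 over all genes. These spans give the spread of single genes and not the error of a median. Chromosome copies were not measured, and their part in these shifts was not tested. On chromosome 11, 12 of 520 genes had an unadjusted limma p under 0.05 with the higher value in line 1. With the higher value in line 2 there were 29. On chromosome 8 these counts were 21 and 10 of 299. Over all 5654 genes the shares in those directions were 3.89% and 3.43%. The genes of smallest p on chromosome 8 were Klf1 (-0.98), Adcy7 (0.65), Cyba (0.55) and Pard3 (0.52), and on chromosome 11 Tlx3 (1.42), Slc35g3 (1.49), Zkscan6 (-0.86) and Fam83g (1.24), none of which passed. Medians over 15 neighbouring genes, a width chosen after seeing the data, ran from -0.24 to 0.24. The highest lay between Slc7a5 and Def8 on chromosome 8 (0.17 in the exp1 pair and 0.30 in the exp2 pair), and the lowest ended at Chrac1 on chromosome 15, with 0.01 and -0.18.

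**Figure D5:**
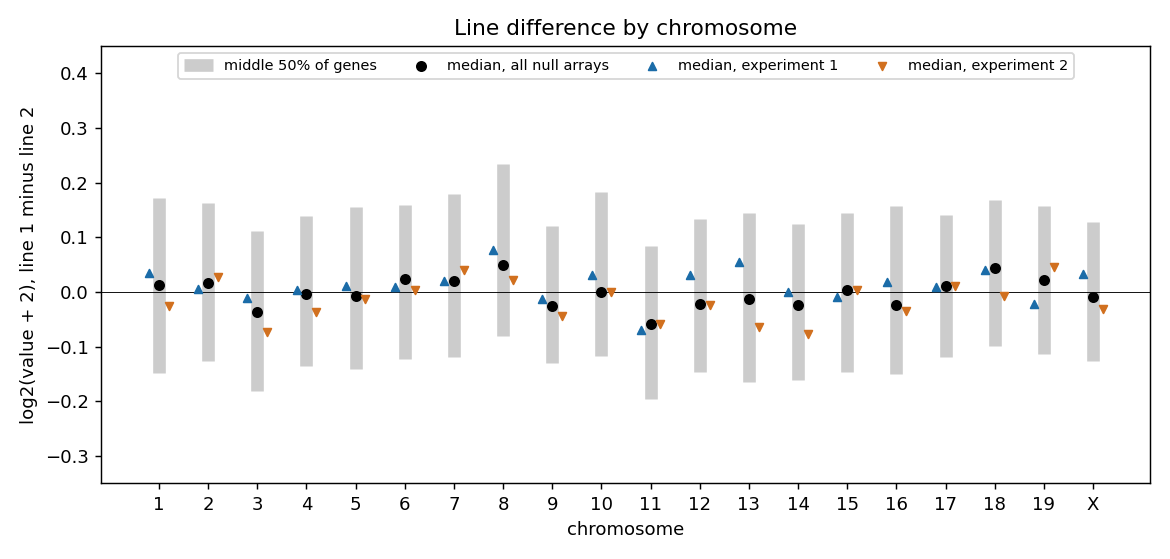
Median difference between the null lines on each chromosome, line 1 minus line 2 on the log2(value + 2) scale, over 1 probe set per gene. Black circles use all 4 null arrays, triangles the exp1 and exp2 pairs alone, and bars span the middle 50% of genes. The medians over all 4 null arrays lie between -0.06 and 0.05, those of the single pairs between -0.08 and 0.08, and every bar crosses 0.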

How the data were processed

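The authors deposited linear intensities, 1 for each probe set on each array. Per the submitters' processing notes they come from MAS5, whose version is not given in the sources. The 66 control probe sets were left out. Values were taken as log2(value + 2), where 2 is the 10th percentile of all values, so fold changes of dim genes are understated. The 7453 probe sets whose mean of the 6 arrays reached the 40th percentile (20.9 intensity units) were tested; 6725 of them have 1 gene in the annotation, 253 have several and 475 none.

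The contrast of line 1 minus line 2 was taken in limma 3.58.1 (R 4.3.3) with lmFit and eBayes, from a model with 1 mean for each of the lines and wild type (3 residual and 3.17 prior degrees of freedom). Benjamini-Hochberg adjustment covered all probe sets tested, at a threshold of 0.05. The labels number the arrays of each line exp1 and exp2 and do not say that equal numbers were paired, so a block for them was only an alternative. The procedure was tested on simulated data. A line at or below the brightest bacterial or yeast control on both arrays gives only a bound, which sets the bright arrays against the background of the dim ones (geometric means).

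Genes were named from the platform annotation, updated through a table of mouse genes (GRCm38.p6) that matched 10817 of 10833 probe sets listed with 1 gene. Named genes were up to 12 on each side, those that passed first and then those past 2-fold without overlap in order of p, with the brighter line above background; every linker histone; Xist; genes of the Y chromosome; up to 4 members of each list by p; up to 6 called probe sets without 1 gene; and up to 4 genes of each chromosome singled out. The arrays, lists and rules were chosen with earlier results of these data known. Alternatives covered the pseudocount, the filter, quantile normalization, median centring, the samples fitted, a spread that follows the signal, the mean of a gene's probe sets, and leaving out each array. Plots used matplotlib 3.10.9 (Python 3.11.15).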

Additional observations from a re-analysis of the deposited data

Results flagged for a closer look

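Among the probe sets past 2-fold, the list genes with an unadjusted limma p under 0.05 and the genes singled out on chromosomes 8 and 11, 110 in all, 22 set the null lines apart by the test of the difference or by lying on opposite sides of wild type. The 110 were picked by their difference between the lines. How many of all tested probe sets had the lines on opposite sides of wild type was not counted, so the 22 have no background share beside them. The difference between the lines passed limma's adjusted p of 0.05 for Prp2, at 2.10 on the log2 scale (line 1 minus line 2), and for 162020_at, which has no gene listed, at 1.59. For Prp2 the lines also lay on opposite sides of wild type, line 2 only just below it.

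For the other 20, both arrays of 1 null line lay above both wild-type arrays and both arrays of the other null line below them, and the difference between the lines did not pass limma's test. Of those past 2-fold, the ones with the higher value in line 1 were Zap70 (2.33), Tlx3 (1.42), 161148_f_at, which is listed with Acrbp and Ing4 (1.37), Myoz1 (1.34), the retinoid receptor gene Rxra (1.29), Smg5 (1.05) and Gcnt2 (1.02). Those with the higher value in line 2 were Ccr6 (-1.89), Bhmt (-1.23), Dll1 (-1.16) and Zc3hc1 (-1.12). Rxra measured 81.5 and 92.6 in line 1, 56.3 and 20.6 in line 2, and 60.4 and 65.2 in wild-type cells. Its difference was 0.61, under 2-fold, without the exp2 array of line 2 and 1.975 without the exp1 array of line 2. A second probe set of Rxra did not show it, with 68.9 and 64.9 in line 1 and 63.8 and 71.5 in line 2. There the lines overlapped (-0.01, limma adjusted p = 0.982). The remaining 9 were under 2-fold. They were Tfcp2l1 (0.64), Jund (0.57), Pard3 (0.52), Cyp26a1 (0.46), Junb (0.39) and Alpl (0.39) with the higher value in line 1, and Dnajb11 (-0.58), Jak2 (-0.57) and Spry4 (-0.40) with the higher value in line 2.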

How the results depend on the processing

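The number of probe sets called between the lines, 2 as reported, was 1 with a pseudocount of 16, with a filter at the 60th percentile and after quantile normalization, and 0 without a filter and with the 4 null arrays alone. It was 0 to 0 without 1 array. With the experiment number as a replicate block it was also 0 (587 probe sets with an unadjusted p under 0.05). The deviations of equally numbered arrays correlated with r between 0.053 and 0.0948, and the labels do not say whether equal numbers shared a day or a batch. The number past 2-fold without overlap, 61 as reported, was 18 with a pseudocount of 16 (9 on each side), 136 without a filter and 14 with a filter at the 60th percentile, and 82 to 148 without 1 null array. In that last range 1 array stood for its line, which loosens the rule. Of 88 differences of single probe sets, 83 kept their sign in every alternative, and 31 moved by over 1.5 times when some 1 array was left out (Cdx1 from 0.39 to 1.09, Hspg2 from 0.30 to 1.11, Cldn4 from 0.23 to 0.77). Without 1 array at a time the others ranged from -0.30 to 0.057 for Meg3 (160172_at), -0.036 to 0.25 for its second probe set, -0.027 to 1.25 for H1f10, -0.012 to 0.23 for 93028_at and -0.027 to 0.56 for H1f1. Of the 88, 3 passed in some alternative: Prp2 in 5 of 14 (limma adjusted p between 0.0164 and 0.405, difference 1.67 to 2.23), 162020_at in 2 (0.037 to 0.451) and Sh3bp1 in 2 (0.0218 to 0.775). List medians moved by less than the SD of their values in the exp1 and exp2 pairs in 284 cases and by more in 101. For chromosome medians these numbers were 186 and 34. The median over all genes lay between -0.02 and 0.01 in every alternative. Chromosome medians stayed between -0.08 and -0.05 on chromosome 11 and between 0.03 and 0.07 on chromosome 8. The cause of these changes was not tested. With 2 arrays per line, precision is limited by their number, and dim probe sets near background had the widest spread.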
